A study of Mus musculus with 4 samples.

Results

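The Zfp genes are the mouse zinc finger protein genes whose name is Zfp followed by a number. They were taken from the deposited annotation by name, as protein-coding genes, leaving out Zfp36 and its numbered relatives, which bind RNA and belong to another class. A region was a member where its centre lay within 1000 bp of the start of such a gene. This gave 228 promoter regions of 225 genes, out of 35019 accessible regions in all. A further 9866 promoter regions of other named protein-coding genes served for comparison. Accessibility had been measured by ATAC-seq, in which the Tn5 transposase cuts open chromatin. The cells were quiescent satellite cells, the stem cells of skeletal muscle, purified by flow sorting from muscle of mdx and wild type mice. The mdx mouse lacks functional dystrophin and is a model of Duchenne muscular dystrophy. There were 2 mdx libraries and 2 wild type libraries. The labels give no strain, age, sex or muscle for either group. According to the design text each condition had 3 mice, but no label ties a library to an animal, so the tests below compare the spread between libraries and not necessarily that between animals.

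Most Zfp genes encode C2H2 zinc finger proteins, in which a row of short fingers, each holding a zinc ion between cysteines and histidines, reads a DNA sequence. Many of them carry a KRAB domain, which recruits the co-repressor Trim28 and with it histone and DNA methylation, and a main task of such proteins is to silence transposable elements. The family grew by repeated duplication, and many of its genes lie in tandem clusters of similar sequence.

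Values are scaled reads per region, that is, reads multiplied by 1 factor per library and rounded. Differences are taken on log2(value + 1), mdx less wild type, with a standard error (SE) from limma, and "passed" means an adjusted p under 0.05 over all 33161 regions tested in the table. Reads recovered in the listed regions numbered 3208475 and 3607633 in mdx, against 3693096 and 8164388 in wild type. Of the nuclear reads, 51.1% and 55.4% in mdx lay in promoter regions, against 62.7% and 59.6% in wild type, while the share in Zfp promoters was 0.867% and 0.912% in mdx, against 0.895% and 0.892% in wild type. Of the satellite cell markers, 5 of 9 genes had a promoter region, Pax7 and Myf5 among them, with summed values of 786 and 826 in mdx and 872 and 897 in wild type. Markers of fibro-adipogenic cells with a region, 6 of 9 genes, summed to 365 and 371 in mdx and 203 and 253 in wild type, although Pdgfra and Ly6a had no region. Osr1, Col1a2 and Col3a1 differed by 1.17, 0.87 and 0.66, and Col1a1, Dcn and Dpp4 by 0.22, 0.02 and -0.15. Of these 6 genes 0 passed. The 2 of 6 myofibre genes with a region, Myh1 and Casq1, summed to 184 and 180 in mdx and 68 and 104 in wild type, and Acta1 and Ckm had none. Of these, Casq1 passed as higher, with 97 and 70 in mdx against 24 and 31 in wild type, a difference of 1.56 (adjusted p = 0.0344, limma). The 1 endothelial gene of 5 with a region, Tek, had 152 and 131 in mdx against 131 and 146 in wild type, and 0 of 7 immune genes had a region. The part of these markers in the Zfp results was not tested.

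The promoter sequences below are those of some Zfp genes that stood apart in accessibility, and they do not stand for all such genes. Each is the RefSeq window (GRCm38.p6, the same chromosomes as mm10) of 300 bases, with 250 before the gene's start and 50 after it, printed 5′ to 3′ on the gene's strand. Capitals mark CpG dinucleotides. Zfp932 is the member that passed the test as higher in mdx, Zfp871, Zfp945 and Zfp81 are among the higher ones of the chromosome 17 clusters, and Zfp318 and Zfp523 are the isolated chromosome 17 genes with the lowest differences.
Zfp932, chr5:109996260-109996559, plus strand: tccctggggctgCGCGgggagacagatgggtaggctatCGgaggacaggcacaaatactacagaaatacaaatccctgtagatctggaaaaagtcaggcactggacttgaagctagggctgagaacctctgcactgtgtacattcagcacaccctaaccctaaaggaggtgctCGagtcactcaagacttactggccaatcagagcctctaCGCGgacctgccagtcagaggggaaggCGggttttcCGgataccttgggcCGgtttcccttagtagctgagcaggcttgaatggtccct
Zfp871, chr17:32788238-32788537, minus strand: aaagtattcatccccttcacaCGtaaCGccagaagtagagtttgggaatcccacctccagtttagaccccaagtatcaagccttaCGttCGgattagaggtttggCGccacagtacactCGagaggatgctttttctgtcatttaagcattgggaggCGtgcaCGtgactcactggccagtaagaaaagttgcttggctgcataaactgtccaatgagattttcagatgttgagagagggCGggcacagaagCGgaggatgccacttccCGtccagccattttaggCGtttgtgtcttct
Zfp945, chr17:22867085-22867384, minus strand: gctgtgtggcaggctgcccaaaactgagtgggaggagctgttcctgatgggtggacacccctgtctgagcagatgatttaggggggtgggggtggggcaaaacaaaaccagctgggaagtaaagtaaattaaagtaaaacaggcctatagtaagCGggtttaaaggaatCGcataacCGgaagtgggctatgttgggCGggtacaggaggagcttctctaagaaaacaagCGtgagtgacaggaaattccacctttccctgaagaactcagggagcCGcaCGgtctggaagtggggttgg
Zfp81, chr17:33358829-33359128, minus strand: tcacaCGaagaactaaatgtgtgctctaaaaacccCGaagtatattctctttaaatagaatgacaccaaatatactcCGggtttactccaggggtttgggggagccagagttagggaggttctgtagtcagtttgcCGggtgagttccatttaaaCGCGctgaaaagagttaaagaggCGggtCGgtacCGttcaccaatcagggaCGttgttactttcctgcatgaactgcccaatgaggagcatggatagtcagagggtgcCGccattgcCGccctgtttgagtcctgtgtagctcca
Zfp318, chr17:46383516-46383815, plus strand: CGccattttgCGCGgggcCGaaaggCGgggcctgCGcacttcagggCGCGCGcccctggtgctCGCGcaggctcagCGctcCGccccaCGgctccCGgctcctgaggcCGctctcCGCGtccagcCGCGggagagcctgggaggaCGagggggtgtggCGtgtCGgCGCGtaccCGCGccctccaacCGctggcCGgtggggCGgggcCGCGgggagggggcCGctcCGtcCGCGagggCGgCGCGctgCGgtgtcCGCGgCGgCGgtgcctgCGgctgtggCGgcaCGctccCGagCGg
Zfp523, chr17:28177168-28177467, plus strand: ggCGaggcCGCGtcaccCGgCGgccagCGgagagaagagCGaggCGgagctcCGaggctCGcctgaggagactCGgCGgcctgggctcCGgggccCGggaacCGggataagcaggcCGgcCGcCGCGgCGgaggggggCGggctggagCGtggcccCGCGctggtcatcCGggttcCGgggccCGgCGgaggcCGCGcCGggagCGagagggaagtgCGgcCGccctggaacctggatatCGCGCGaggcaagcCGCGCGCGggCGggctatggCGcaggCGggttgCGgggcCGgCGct
The windows of Zfp932, Zfp871, Zfp945 and Zfp81 held 9, 12, 7 and 12 CpGs, at a G and C content of 54.3%, 49.0%, 52.3% and 48.7%. Zfp318 and Zfp523 held 49 and 47 CpGs, and Zfp523 had a G and C content of 79.0%. The median Zfp window had 55.2%, near that of Zfp932. Base composition did not part higher from lower genes throughout. Zfp106, with a difference of -0.87, had a window of 51.0%. Zfp583, with a difference of -0.88, had a window of 49.3%, which does not overlap its measured region.

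Zfp promoters as a set had a median accessibility in mdx satellite cells close to that in wild type cells, while promoters of other genes mostly had lower values in mdx. The median Zfp promoter had 102 and 103 scaled reads in the mdx libraries, against 101 and 100 in the wild type libraries. The median of the other named promoters was 109 and 119 in mdx, against 144 and 125 in wild type. Of 225 Zfp regions tested, 97 had a difference above 0 and 128 below, that is 43.1% above, with a median of -0.05 and quartiles of -0.32 and 0.21. Of 9737 other promoters tested, 22.1% were above 0, with a median of -0.27 and quartiles of -0.50 and -0.03.

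The single region to pass among the Zfp promoters was that of Zfp932, which rose in mdx, and 0 fell. Without adjustment, 7 of the 225 were higher and 15 lower at a p under 0.05 in limma. Of the 9737 other named promoters, 197 were higher and 1872 lower at that level. For the Zfp regions, limma voom on the recovered reads also called 1 higher and 0 lower. Over all tested regions 4.18% passed, 3.3% as higher and 0.881% as lower in mdx, and over the other named promoters 2.27% passed, 0.431% as higher and 1.84% as lower. In 48 Zfp regions (21.3%) both mdx values lay above both wild type values, against 8.22% of the other promoters. In 56 (24.9%) both lay below, against 46.3% of the other promoters, and in 121 the groups overlapped. Over all tested regions these shares were 26.8% and 25.9%.

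**Figure D1:**
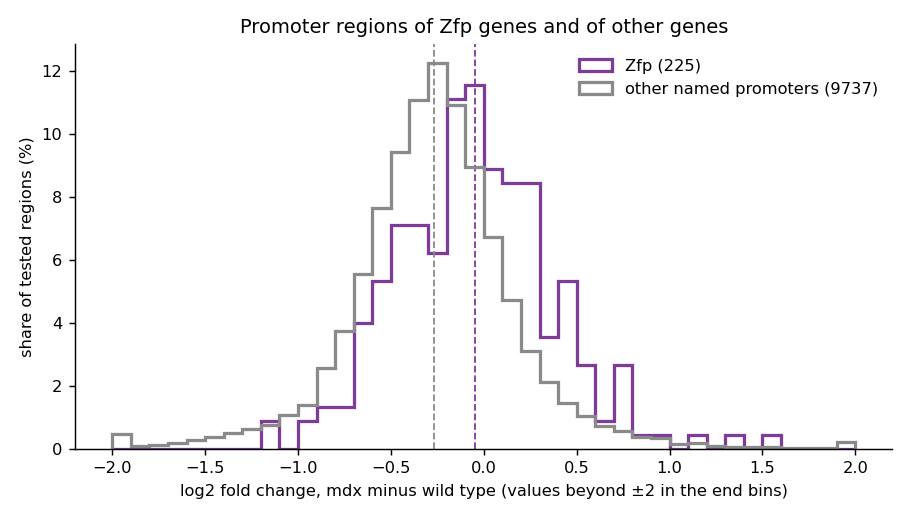
Share of tested regions (%) by log2 fold change (mdx over wild type) for 225 Zfp promoters and 9737 other named promoters; dashed lines mark the medians, -0.05 and -0.27. The Zfp distribution lies to the right of the other promoters, with a wider upper shoulder; both medians move with the scaling between libraries, to -0.38 and -0.60 when distal medians are set equal and to 0.16 and -0.06 when promoter medians are.

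The zero of these differences depends on how libraries were scaled. With the medians of distal regions set equal, which moved the median of all regions to -0.35 against -0.01 with the deposited scaling, 36 Zfp regions were above 0, 1 passed as higher and 19 as lower. With promoter medians set equal, the median of all regions was 0.19, 148 Zfp regions were above 0, and 1 passed as higher and 0 as lower. The distance between the Zfp median and that of the other promoters was 0.22 with the deposited values, 0.16 after cyclic loess and between 0.18 and 0.29 with 1 library left out. In 3 bins of mean value, from low to high with bounds of 74.8 and 203, Zfp medians were -0.18, 0.01 and -0.03, beside -0.30, -0.24 and -0.27 for the other promoters. Without chromosome 17, the Zfp medians were -0.305, -0.05 and -0.08, so in the lowest bin the Zfp value was then next to that of the other promoters. The 8 chromosome 17 regions of that bin had a median of 0.58.

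Zfp932 is a mouse KRAB zinc finger gene of chromosome 5. Its promoter region (chr5:109996260-109996754, across the gene's start) had 104 and 123 scaled reads in mdx libraries, against 43 and 47 in wild type libraries. Both mdx values were more than the wild type values by a margin wider than the gap within either group. The difference was 1.31 (SE 0.30), a fold of 2.48, with an adjusted p of 0.0321 in limma. With 1 library left out it was 1.19 to 1.43 with an adjusted p of 0.288 to 0.671, whichever of the 4 libraries it was, in fits that called 0 regions anywhere in the table. Of the 30-base words in its promoter window, 11.1% also occur in RefSeq promoter windows elsewhere, so some reads may be shared with other copies.

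Among Zfp promoters at or above the median level of all promoters, the 6 with the largest positive differences were those of Zfp39, Zfp595, Zfp606, Zfp451, Zfp160 and Zfp825, and none of them passed. Zfp39 on chromosome 11 had 191 and 187 in mdx, against 101 and 130 in wild type, a difference of 0.72 (SE 0.24, adjusted p = 0.102, limma). Zfp595, in a chromosome 13 cluster, had 158 and 122 in mdx, against 87 and 103 in wild type. Zfp606 had 127 and 159 in mdx, against 99 and 108 in wild type. Zfp451, whose human counterpart attaches the small modifier SUMO to proteins, had 174 and 144 in mdx, against 110 and 123 in wild type. Zfp160 had 140 and 159 in mdx against 98 and 124 in wild type, and Zfp825 had 214 and 162 in mdx against 134 and 147 in wild type. In all 6 the mdx libraries lay above the wild type libraries without overlap, which their choice as the largest differences favours. The 5 besides Zfp39 differed by 0.41 to 0.55, with adjusted p of 0.236 to 0.332 in limma.

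The 6 largest negative differences at that level belonged to Zfp318, Zfp384, Zfp605, Zfp597, Zfp395 and Zfp438, all outside the tandem clusters except Zfp597. Zfp318, which is needed for IgD expression in mouse B cells, had 76 and 86 in mdx, against 177 and 145 in wild type. Its difference was -0.98 (SE 0.26, adjusted p = 0.0523, limma). It passed as lower under 7 other settings, among them the replicate block (adjusted p = 0.0348) and scaling by column totals (0.0443). Zfp384, a regulator of extracellular matrix genes in bone cells, had 144 and 188 in mdx, against 233 and 265 in wild type, a difference of -0.59 (adjusted p = 0.141, limma). The groups did not overlap in either. Zfp605 had 82 and 109 in mdx against 197 and 100 in wild type, so its groups overlapped and wild type library 1 stood above the other 3. Zfp597 had 158 and 149 in mdx against 272 and 187 in wild type, and Zfp395 had 252 and 225 in mdx against 424 and 288 in wild type. Zfp438 had 375 and 503 in mdx against 784 and 507 in wild type. In Zfp597, Zfp395 and Zfp438 the mdx values were lower without overlap, and wild type library 1 held the highest value. The choice by size of difference favours groups without overlap here too.

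**Figure D2:**
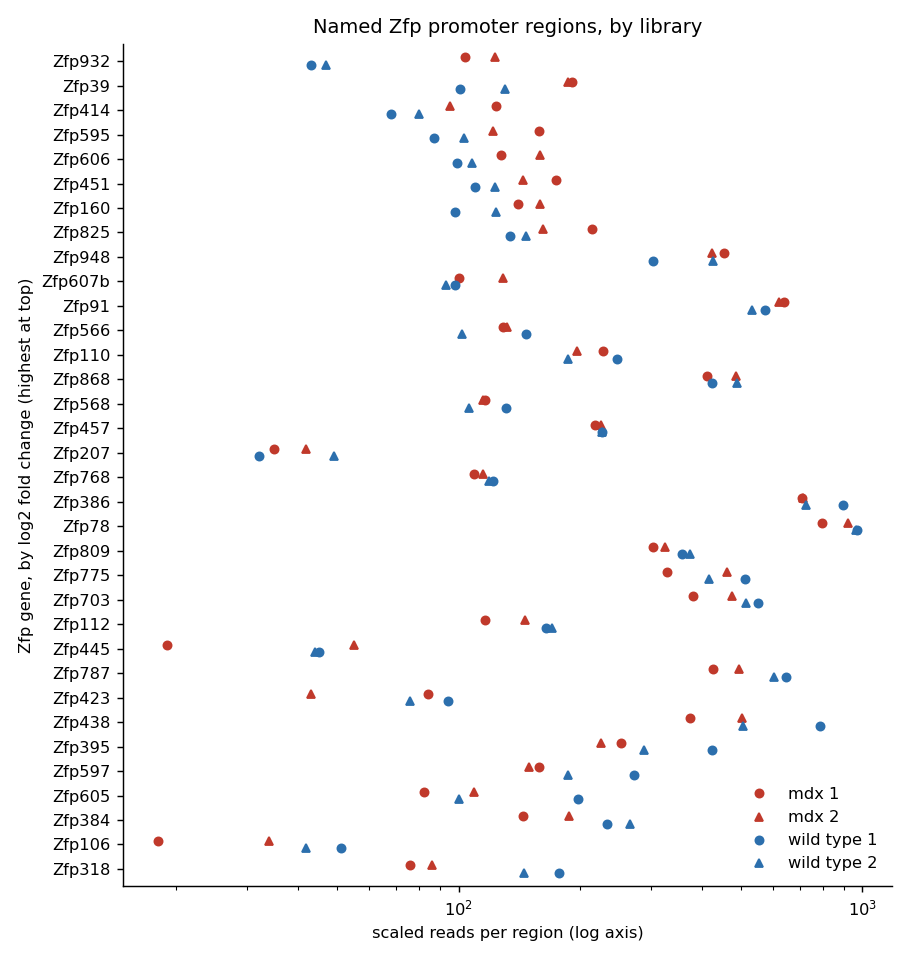
Scaled reads per region (log axis) in each library for the 34 named Zfp promoters with a region, ordered by log2 fold change from the highest at the top; red marks mdx, blue wild type, circles library 1 and triangles library 2. Zfp932 shows the widest gap with mdx above and Zfp318 the widest with mdx below. The groups of 10 of the 34 overlap, beside 121 of all 225 tested Zfp regions.

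Of all 225 tested Zfp regions, 5 had a difference beyond 1 in either direction, and except for Zfp932 they were low and did not pass. Zfp385b had 23 and 41 in mdx against 66 and 74 in wild type, a difference of -1.16 (adjusted p = 0.0973, limma). Zfp764 had 4 and 13 in mdx against 29 and 11 in wild type, with overlapping groups. Zfp763 had 37 and 16 in mdx against 13 and 8 in wild type, and Zfp931 had 39 and 20 in mdx against 4 and 18 in wild type. These genes, like those of chromosome 17 named next beside Zfp160, Zfp948, Zfp414 and Zfp318, were singled out after their values were seen.

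The Zfp promoters in tandem clusters on chromosome 17 had higher values in mdx than in wild type almost throughout. A cluster was a run of at least 3 Zfp genes with neighbouring starts within 500 kb, and each carries its chromosome and a letter. Every other Zfp gene is called isolated, also where it forms a pair. Chromosome 17 held 3 of them, 17A (chr17:21008941-23599487), 17B (chr17:32771236-33631779) and 17C (chr17:55864892-55949500), by the outer limits of their genes. Their 27 promoter regions, of 26 genes, summed to 3872 and 3904 scaled reads in mdx, against 2912 and 3225 in wild type. Of the 27, 25 had a difference above 0, with a median of 0.40 and quartiles of 0.18 and 0.56. In 19 (70.4%) both mdx values lay above both wild type values, beside 26.8% of all tested regions and 8.22% of the other named promoters, and in 1 both lay below. No region of these clusters passed in limma, 2 were higher and 0 lower at an unadjusted p under 0.05, and 0 passed in limma voom. Of the 9737 other named promoters, 197 were higher and 1872 lower at that unadjusted level.

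In 17B, all 7 regions had a difference above 0, with a median of 0.57 and sums of 550 and 500 in mdx against 332 and 362 in wild type. Zfp871 had 124 and 107 in mdx, against 49 and 75 in wild type, a difference of 0.91 (SE 0.30, adjusted p = 0.101, limma). Zfp563 had 112 and 85 in mdx, against 73 and 59 in wild type. Zfp81 had 44 and 34 in mdx, against 21 and 25 in wild type. All 3 had mdx above wild type without overlap. Zfp414, the most accessible member of 17B, had 124 and 95 in mdx against 68 and 80 in wild type, a difference of 0.55 (adjusted p = 0.269, limma). Zfp101 had 77 and 93 in mdx against 66 and 71 in wild type, and Zfp472, with 32 and 70 in mdx against 42 and 44 in wild type, was the 1 member whose groups overlapped.

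In 17A, 16 of 18 regions had a difference above 0, with a median of 0.39 and sums of 2896 and 2899 in mdx against 2222 and 2456 in wild type. Zfp948, its most accessible member, had 455 and 423 in mdx against 303 and 426 in wild type, a difference of 0.29 that was -0.05 with distal medians set equal, and wild type library 2 lay between the mdx values. Zfp51 had 423 and 473 in mdx against 362 and 327 in wild type, and Zfp760 had 438 and 343 in mdx against 263 and 327 in wild type. Zfp945 had 140 and 124 in mdx against 88 and 86 in wild type, a difference of 0.59 (adjusted p = 0.188, limma). Groups were apart in Zfp51, Zfp760 and Zfp945, as they were in Zfp160, described above. Zfp40 had 187 and 184 in mdx against 142 and 146 in wild type, Zfp229 had 95 and 101 in mdx against 75 and 65 in wild type, and Zfp995 had 29 and 36 in mdx against 18 and 19 in wild type. The exceptions were Zfp758 and the lower and more distant of the 2 Zfp54 regions. Zfp758 had 100 and 112 in mdx against 123 and 140 in wild type. That Zfp54 region had 14 and 15 in mdx against 22 and 14 in wild type. Zfp758 shares 87.1% of the 30-base words in its promoter window with windows elsewhere. Zfp943, also in 17A, shares 89.7% and was not an exception, with 120 and 134 in mdx against 110 and 118 in wild type. Both regions of 17C were higher without overlap, Zfp119a with 213 and 256 in mdx against 155 and 204 in wild type and Zfp959 with 213 and 249 in mdx against 203 and 203 in wild type.

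The isolated Zfp genes of chromosome 17 did not share this. Zfp318 is given above. Zfp523, a relative of the transcription activator Zfp143, had 33 and 45 in mdx against 87 and 65 in wild type, a difference of -0.95 (adjusted p = 0.130, limma). Zfp960 had 156 and 164 in mdx against 143 and 208 in wild type. The other named promoters of chromosome 17, 403 of them tested, had a median of -0.30 with 17.1% above 0, and 0 passed as higher and 12 as lower. Inside the cluster spans, regions that are not Zfp promoters lay on the same side as their neighbours: the 1 other named promoter in 17A differed by 0.33 and the 2 in 17B by a median of 0.51, and 11 distal regions in 17A had a median of 0.26. Distal regions of the whole table had a median of 0.19, so the distal value in 17A is near the general one. Zfp genes outside chromosome 17 had a median of -0.09, with 72 of 195 above 0.

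Scaling moved the size of the chromosome 17 difference. The cluster median was 0.60 with promoter medians set equal and 0.065 with distal medians set equal, where 17 of 27 regions were above 0 and the median of 17C was -0.05. Leaving out 1 library gave medians of 0.25, without wild type library 1, to 0.53, without wild type library 2, and 22 to 26 regions above 0. Neighbouring copies can share reads: 7 of 24 cluster genes with a RefSeq window held a 30-base word found in another window. The 18 tested regions whose window held none had a median of 0.43, with 17 above 0, and the 7 that held such a word had a median of 0.39, with 6 above 0.

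**Figure D3:**
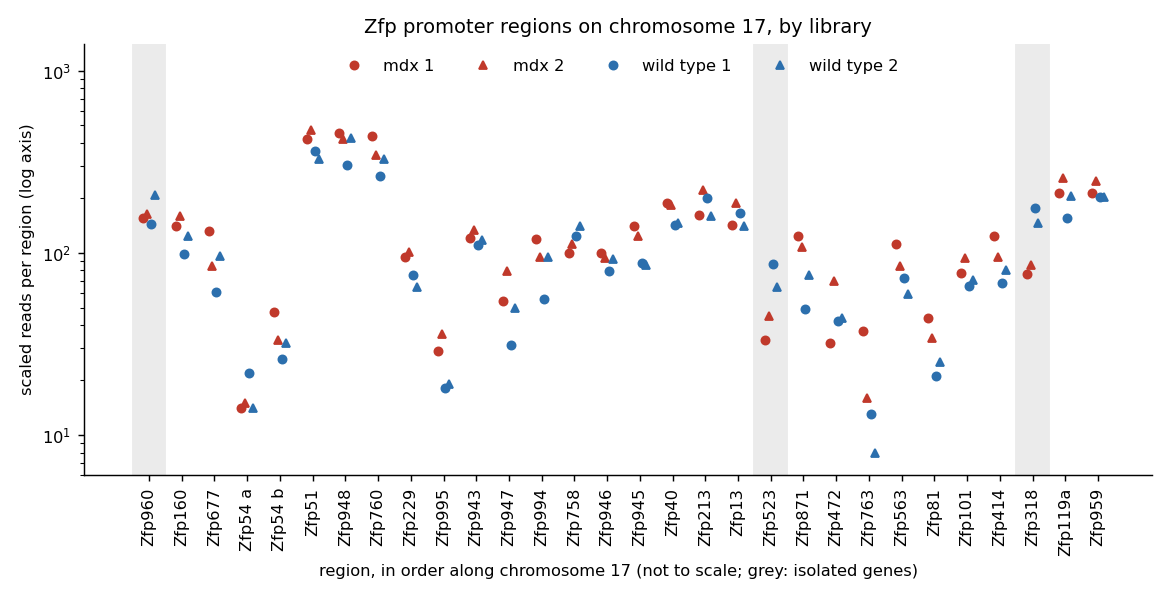
Scaled reads per region (log axis) in each library for the 30 Zfp promoter regions of chromosome 17, in order along the chromosome but not to scale; red marks mdx, blue wild type, and grey bands the 3 isolated genes. Mdx points lie above wild type points in most cluster genes and below them in Zfp523 and Zfp318; with distal medians set equal, 17 of the 27 cluster regions have a difference above 0.

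Over the genome, 138 Zfp genes with any row in the table fell into 23 clusters and 99 were isolated. The isolated set is therefore not free of neighbouring or duplicated genes. It holds the pair Zfp932 and Zfp605 on chromosome 5. On chromosome 2 it holds Zfp970, Zfp971, Zfp931 and Zfp442, which share 70.5% to 100% of their 30-base words with other windows. Tested promoters in clusters, 131 of them, had a median of 0.03 with 70 above 0, and the 94 isolated ones had a median of -0.18 with 27 above 0. Without chromosome 17, the clustered ones had a median of -0.03, with 45 of 104 above 0. Cluster medians were above 0 in 14 and below 0 in 9, and 20 of the 23 lay above the median of the other named promoters. The lowest with at least 5 tested regions was 7B (chr7:6131491-6396915), with a median of -0.28 and 0 of 6 above 0. Its regions summed to 1868 and 2110 in mdx against 2489 and 2330 in wild type, and in 5 of 6 both mdx values lay below both wild type values, which held in 25.9% of all tested regions and 46.3% of the other named promoters. It holds Zfp787, with 426 and 496 in mdx against 647 and 605 in wild type, and Zfp583, with 44 and 41 in mdx against 83 and 75 in wild type. Zfp583 was named after its values were seen, and neither passed in limma (adjusted p = 0.134 and 0.127). With promoter medians set equal, the 7B median was -0.07.

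Cluster 13A (chr13:67038596-67827002) is the nearest to 17A in size, with 15 tested regions, and did not show this. Its regions summed to 1595 and 1358 in mdx against 1528 and 1561 in wild type, with a median of -0.09 and 3 above 0. Its most accessible member, Zfp457, had 218 and 225 in mdx against 226 and 227 in wild type, a difference of -0.03 (SE 0.20) whose sign turned under 3 other scalings. In 10 of 15 its groups overlapped, beside 121 of all 225 tested Zfp regions and 4432 of 9737 other named promoters. The 10 regions of 7G had a median of 0.03 with sums of 590 and 610 in mdx against 593 and 631 in wild type, and its leading member Zfp566 had 129 and 132 in mdx against 147 and 102 in wild type. In 6A, Zfp775 led with 329 and 462 in mdx against 511 and 418 in wild type, overlapping, and the cluster median was 0.01. Zfp110, a partner of the neurotrophin receptor p75 that leads 7D, had 228 and 196 in mdx against 247 and 187 in wild type. Zfp112 in 7E had 116 and 146 in mdx against 165 and 170 in wild type, Zfp607b in 7F had 100 and 129 in mdx against 98 and 93 in wild type, and Zfp768 in 7I had 109 and 115 in mdx against 122 and 119 in wild type. Zfp868 in 8A had 412 and 486 in mdx against 425 and 490 in wild type. These leading members differed by -0.36 to 0.25, none passed, and the sign turned under at least 1 other scaling in all of them except Zfp112 and Zfp775.

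**Figure D4:**
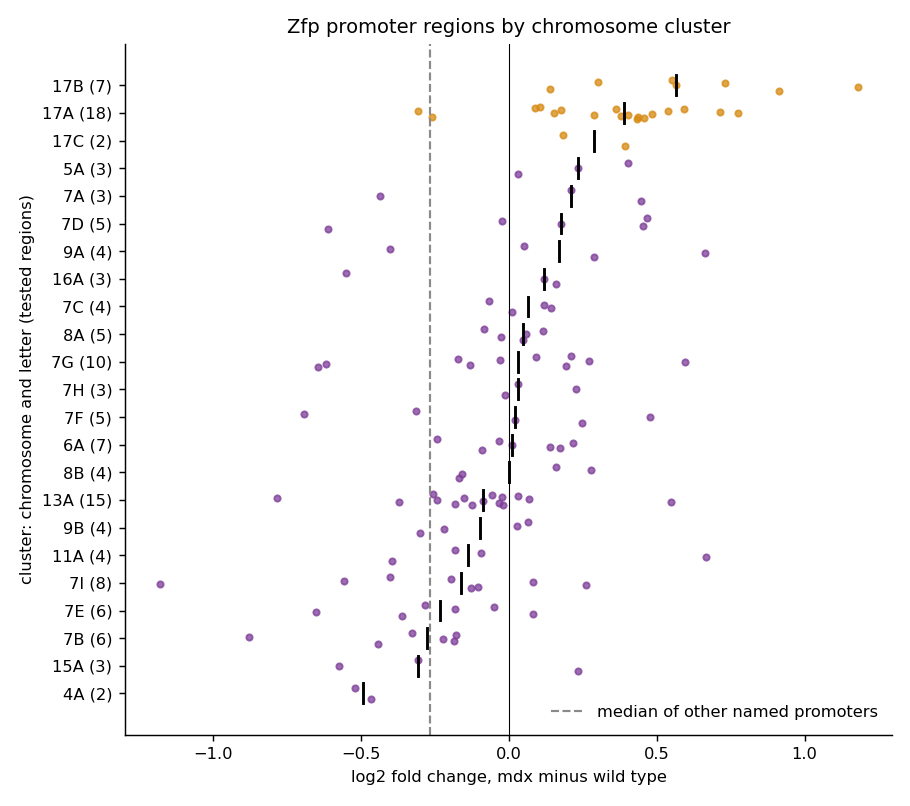
Log2 fold change, mdx minus wild type, of each tested Zfp promoter region in 23 clusters, ordered by cluster median (black bars) from the highest at the top; orange marks chromosome 17, purple other chromosomes, and the dashed line the median of other named promoters, -0.27. The 3 chromosome 17 clusters have the 3 highest medians, 0.57, 0.39 and 0.29, and with distal medians set equal their joint median is 0.065 and that of 17C is -0.05.

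Zfp promoters were of middling accessibility. Their mean value over the 4 libraries ranged from 6.5 to 913 among those tested, with a median of 102, beside 125 for other named promoters. Of the 225, 8 were in the top 10% of named promoters and 23 in the bottom 10%. The 5 most accessible were Zfp78, Zfp386, Zfp91, Zfp787 and Zfp438. Zfp78 had 795 and 919 in mdx against 972 and 965 in wild type, a difference of -0.18 (SE 0.14). Zfp386 had 710 and 713 in mdx against 893 and 725 in wild type, also -0.18 (SE 0.16). Zfp91, which has been described as a ubiquitin ligase of the noncanonical NF-kB pathway, had 640 and 622 in mdx against 574 and 532 in wild type, a difference of 0.19 (SE 0.15). In these 3 the groups were apart by little, none passed (adjusted p of 0.489 to 0.533, limma), and the sign of each turned under at least 1 other scaling.

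Among members listed by name for a known role, no promoter region passed. Of 20 such genes, 9 had a promoter region and 11 did not, among the 11 Zfp57, which maintains imprints, Zfp42, a marker of pluripotent cells, and Zfp521, Zfp281 and Zfp143. The 9 include Zfp110 and Zfp91, given above, and in 5 of the 9 the groups overlapped. Groups overlapped in 121 of all 225 tested Zfp regions and in 4432 of the 9737 other named promoters tested. Zfp809, which silences murine leukaemia proviruses in embryonic stem cells, had 303 and 325 in mdx against 358 and 374 in wild type, a difference of -0.22 (SE 0.18). Zfp568, which represses a placental Igf2 transcript, had 116 and 115 in mdx against 131 and 106 in wild type, -0.03 (SE 0.25). Zfp445, which acts beside Zfp57 at imprints, had 19 and 55 in mdx against 45 and 44 in wild type, and the mdx libraries lay on either side of wild type. Zfp703, a co-repressor, had 381 and 475 in mdx against 551 and 515 in wild type, with the groups apart and an adjusted p of 0.292 in limma. Zfp106, an RNA-binding protein whose loss causes neuromuscular degeneration in mice, had 18 and 34 in mdx against 51 and 42 in wild type. Its difference was -0.87 (SE 0.43, adjusted p = 0.246, limma). Zfp423, a regulator of preadipocyte commitment, had 84 and 43 in mdx against 94 and 76 in wild type, overlapping. Zfp207, which binds the spindle checkpoint protein Bub3, had 35 and 42 in mdx against 32 and 49 in wild type.

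RefSeq windows matched 189 of the 228 Zfp regions (82.9%), of 186 genes, and 77.0% of the other named promoters, which is under the 80% needed for a comparison, so base composition is compared within the Zfp genes. A window was matched where its gene start lay within 1000 bp of the region's centre. Some windows, that of Zfp583 among them, therefore lie beside the region and not over it. The median Zfp window had a G and C content of 55.2% and 15 CpGs. Chromosome 17 cluster genes had 52.2% and 11.5 CpGs, cluster genes elsewhere 54.3% and 14, and isolated genes 59.0% and 19. Over 187 tested regions, G and C content and the log2 fold change had a Pearson r of -0.27 and a Spearman rho of -0.20, as a description of regions that share libraries. The relation was also negative over the 7509 tested regions of other named promoters that matched a window (r of -0.164, rho of -0.165). In 3 equal bins of G and C content, from low to high (bounds 52.3% and 58.7%), the medians were 0.01, 0.04 and -0.18. Within the chromosome 17 clusters, 13 of 13, 7 of 8 and 3 of 4 were above 0 in these bins, with medians of 0.55, 0.34 and 0.12. Outside chromosome 17 the medians were -0.08, 0.01 and -0.18.

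**Figure D5:**
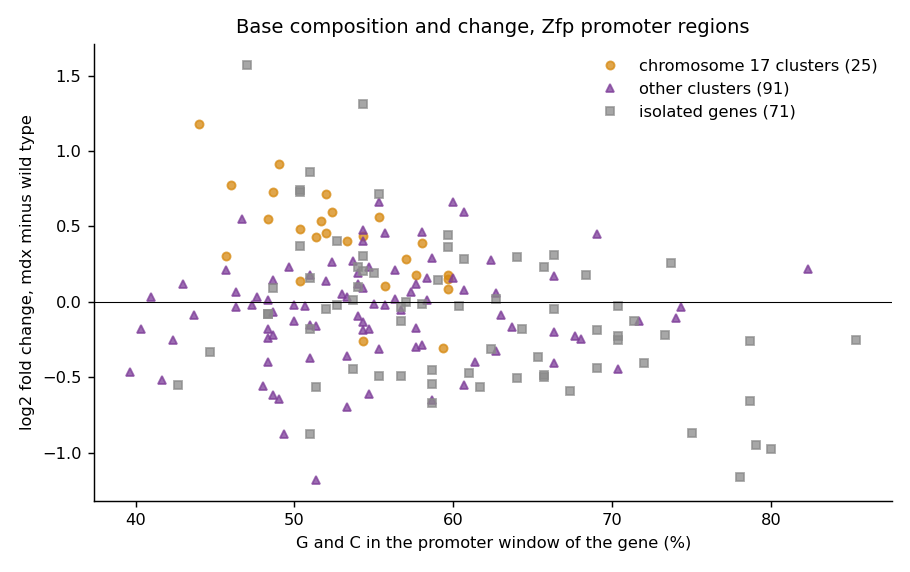
Log2 fold change, mdx minus wild type, against the G and C content (%) of the RefSeq promoter window for 187 tested Zfp promoter regions; circles mark chromosome 17 clusters (25), triangles other clusters (91) and squares isolated genes (71). Chromosome 17 cluster genes sit mostly above 0 at 44% to 60% G and C, and the isolated genes with the highest G and C content sit below 0; the zero line moves with the scaling between libraries.

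Of the 10 motifs searched on both strands of the windows, CCAAT was the most frequent in Zfp genes. Since 77.0% of the other promoters matched a window, the shares given for other windows describe those matched and are not a comparison with the Zfp genes. CCAAT, the box bound by the factor NF-Y, stood in 47.8% of Zfp windows (89 of 186) and in 39.1% of the other windows matched. Regions with it had a median of 0.12, with 56 of 88 above 0, and those without had -0.17, with 33 of 99 above 0. Outside chromosome 17 the medians were 0.06, with 41 of 73 above 0, and -0.18, with 25 of 87 above 0. Among other promoters the medians with and without CCAAT were -0.26 and -0.27, with 21.5% and 22.0% above 0. The GC box GGGCGG stood in 47.3% of Zfp windows and 72.8% of the others, and Zfp regions with and without it had medians of -0.03 and 0.03 (37 of 89 and 52 of 98 above 0). CCGGAAG, an ETS-type site, stood in 25.3% of Zfp windows and 18.8% of the others (medians of 0.02 and -0.03). TATAAA stood in 4.84% of Zfp windows and 6.01% of the others. The cyclic AMP response element TGACGTCA stood in 3.76% of Zfp windows and 3.95% of the others, the NRF1-type site GCGCATGC in 6.45% and 5.71%, and the YY1-type site AAGATGGC in 6.99% and 4.67%. ACTACAA, part of the Zfp143 site, stood in 6.45% of Zfp windows and 4.32% of the others, the E2F-type site TTCCCGC in 7.53% and 9.38%, and the ZBTB33 motif in 0.538% and 1.19%. Motifs were searched separately, so matches may overlap, and a match is a string in the window and not a bound site.

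Genes through which KRAB zinc finger proteins repress showed no such pattern. Of 37 listed names, which hold the same gene both as Fam208a and as Tasor, 28 had a promoter region (29 regions). Of these regions 0 passed, 0 were higher and 3 lower at an unadjusted p under 0.05, and 0 passed in limma voom. Of the 9737 other named promoters, 197 were higher and 1872 lower at that unadjusted level. The median of the 29 regions was -0.24 with 5 above 0, close to the -0.27 of other named promoters. Trim28, the co-repressor that KRAB domains bind, had 269 and 303 in mdx against 336 and 396 in wild type, a difference of -0.35 (SE 0.19, adjusted p = 0.289, limma). Setdb1, the histone methyltransferase that Trim28 recruits, had 6 and 17 in mdx against 12 and 12 in wild type, a difference of -0.21 (SE 0.66). Cbx5 had no promoter region among those listed. Other families named for zinc-binding domains had medians below that of the Zfp set: -0.24 for 36 Zbtb regions, -0.18 for 13 Zkscan and Zscan, -0.44 for 15 Klf and Sp, -0.21 for 10 Zc3h, -0.22 for 7 Zfand and -0.30 for 56 Rnf regions, and -0.10 for 33 Trim regions. Without chromosome 17 the Zfp median was -0.09, next to that of the Trim regions. Both mdx values lay above both wild type values in 23.1% of Zkscan and Zscan and 21.2% of Trim regions, near the 21.3% of Zfp. The share was 6.67% for Klf and Sp, 3.57% for Rnf, 2.78% for Zbtb and 0% for Zc3h and Zfand. In these families 1 Klf or Sp region and 1 Rnf region passed, both as lower, and the differences between families were not tested.

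The filter of at least 10 in at least 2 libraries left out 3 Zfp regions, of Zfp26 (15 and 2 in mdx, 0 and 6 in wild type), Zfp114 (4 and 7 in mdx, 0 and 13 in wild type) and the second region of Zfp931 (17 and 0 in mdx, 0 and 5 in wild type). Zfp54, Zfp668 and Zfp931 had 2 promoter regions each. Zfp668 had 90 and 88 in mdx against 116 and 90 in wild type in the wider region, and 3 and 13 in mdx against 6 and 13 in wild type in the other.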

How the data were processed

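Open chromatin was profiled by ATAC-seq in sorted quiescent satellite cells, with 2 mdx and 2 wild type libraries grouped by the genotype label. Trimmomatic 0.33, MACS2 2.1.0, STAR 2.5.3a, Picard 2.9.0, DESeq and DESeq2 were used with build mm10, per the submitters' processing notes. The sources used here do not give what each tool did, whether regions were called on pooled reads, or how duplicates and the Tn5 offset were handled.

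The authors deposited whole numbers per region and library that are treated as a score: the values show that reads were multiplied by 1 factor per library and rounded. In mdx 1, mdx 2 and wild type 1 the factors of 1.382, 1.162 and 1.222 leave 111, 56 and 73 whole numbers up to 400 unused, and 0 regions fall on such a number. In wild type 2 (factor 0.492) numbers due an extra read are 1.28 times as frequent as those beside them. Recovered reads are reads in the listed regions, exact for mdx 1, mdx 2 and wild type 1. A deposited fraction, the share of a region within the gene, was not used. Whether coordinate starts count from 0 or 1 is not stated.

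Regions that reached 10 in 2 or more libraries were tested on log2(value + 1) with limma 3.58.1 (R 4.3.3), with an intensity trend, group as the only term and Benjamini-Hochberg adjustment over the 33161 regions kept. Changes of low regions come out too small on this scale. In simulated mdx and wild type tables of 35019 regions, with 200 changed in each, the test called 0% at 1.5-fold, 0.503% at 2-fold and 87.5% at 4-fold. The spread between simulated libraries was assumed, and 1387 regions passed in the real table. These shares therefore do not give the power of the test there. A description by counts and medians stands in place of any test of the Zfp set. Clusters join neighbouring Zfp gene starts within 500 kb, with at least 3 genes.

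The members and lists were chosen with earlier results of these data known. Named genes are those that passed, the 6 highest and 6 lowest differences above the median promoter level of 116, the 5 most accessible, the most accessible member of each cluster with at least 5 tested regions, and 20 genes by name. Library numbers are those of the titles, and no label says what same-numbered libraries share. Deviations from the group means of same-numbered libraries had a correlation of -0.11 over all tested regions. Alternatives covered scaling, filter, pseudocount, limma voom, the replicate block, single libraries, autosomes, the promoter window and the cluster distance. Protein features of the members were not analysed here.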

Additional observations from a re-analysis of the deposited data

How the results depend on the processing

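Zfp932 passed as higher under every alternative run except no filter on low values (adjusted p 0.0583) and each leave-one-out fit, where 0 Zfp regions passed in either direction. The count of Zfp regions higher in mdx, 1 as reported, was 2 after cyclic loess (with Zfp51), 0 with no filter and 3 with the crossed replicate block (with Zfp39 and Zfp871). The count lower in mdx, 0 as reported, was 1 with scaling by column totals, with a mean value of at least 50 and with a pseudocount of 5, 2 after cyclic loess and 19 with distal medians set equal. The replicate block gave 1 higher and 1 lower (Zfp318). The crossed block gave 3 and 10. It was chosen after seeing the data because same-numbered libraries deviated in opposite directions (r = -0.11). No label says what same-numbered libraries share beyond the number. Of all calls in the table, 78.9% were higher as reported, 92.3% with promoter medians set equal and 26.1% with distal medians set equal. The Zfp median (-0.05) was 0.0021 with column totals, 0.16 and -0.38 with promoter and distal medians set equal, -0.0675 after cyclic loess, -0.0286 with a mean of at least 50, -0.0284 with voom, -0.0345 on autosomes, -0.0838 without cluster 17A, -0.0937 without chromosome 17, and -0.0887 to 0.0156 with 1 library left out, the only value above 0 being that without mdx library 1. The median of the other named promoters (-0.27) was -0.0631 and -0.60 with promoter and distal medians set equal and -0.35 to -0.19 with 1 library left out. The distance between these medians (0.22) was 0.16 after cyclic loess, 0.20 with voom, 0.23 on autosomes and 0.18 to 0.29 with 1 library left out. The chromosome 17 cluster median (0.40) was 0.60 and 0.065 with promoter and distal medians set equal, and 0.25 to 0.53 with 1 library left out. Some single genes turned sign, all with differences far from passing. With promoter medians set equal, Zfp386 was at 0.0261, Zfp78 at 0.0233, Zfp457 at 0.17, Zfp110 at 0.18, Zfp768 at 0.10, Zfp868 at 0.17, Zfp568 at 0.17 and Zfp207 at 0.16. With distal medians set equal, Zfp91 was at -0.15, Zfp948 at -0.0489, Zfp607b at -0.0879 and Zfp566 at -0.25. After cyclic loess, Zfp386 was at 0.10, Zfp78 at 0.13, Zfp457 at 0.0543, Zfp110 at 0.0544 and Zfp868 at 0.17. With column totals, Zfp457 was at 0.0172, Zfp110 at 0.0257, Zfp868 at 0.0213, Zfp568 at 0.0205 and Zfp207 at 0.0021, and with voom Zfp110 was at 0.0341 and Zfp568 at 0.0253. With 1 library left out, Zfp110 ranged over -0.22 to 0.18, Zfp566 over -0.17 to 0.35, Zfp868 over -0.15 to 0.0906, Zfp568 over -0.18 to 0.12, Zfp207 over -0.35 to 0.25 and Zfp445 over -1.19 to 0.30. The cause of these shifts was not tested. With 2 libraries per group and about 100 scaled reads in a typical Zfp region, changes near 2-fold can go uncalled. The simulated tables cannot give that share, since they held 200 changed regions each and 1387 regions passed in the real table.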

Other observations

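Beyond 1000 bp from the start, 30 further regions were linked to 24 Zfp genes, 12 of which had no promoter region. Of these 30, 26 were tested, 0 passed in limma, and the median difference was -0.25. The region linked to Zfp982 on chromosome 4 stood apart in width, at 64376 bp with its centre 11923 bp from the start. It had 473 and 703 scaled reads in mdx against 299 and 379 in wild type, a difference of 0.77 (SE 0.21, adjusted p = 0.0589, limma). In cluster 17A the region of Zfp53, 2289 bp from the start, had 281 and 331 in mdx against 211 and 219 in wild type, a difference of 0.50 (SE 0.20, adjusted p = 0.157, limma), on the side of its neighbours. Zfp57, on chromosome 17 outside the clusters, had 15 and 16 in mdx against 24 and 19 in wild type at 1618 bp from its start. A region of Zfp710 on chromosome 7, 1634 bp from its start, had 15 and 19 in mdx against 48 and 32 in wild type. Its difference was -1.17 (SE 0.45, adjusted p = 0.148, limma). The promoter region of Zfp710 did not share this, with 75 and 89 in mdx against 88 and 74 in wild type, a difference of 0.02. These regions were picked after their values were seen.

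On chromosome X, which carries the dystrophin gene, 6 Zfp promoters had a median difference of -0.46 with 1 above 0, and 355 other named promoters a median of -0.29. On chromosome 4 the 8 Zfp promoters had a median of -0.35 with 1 above 0. Of these, 2 were in cluster 4A, with a median of -0.49, and the 15 distal regions in its span had a median of 0.66, with 0 passing in either direction. Chromosomes X and 4 were picked after their values were seen. Similar medians held for the 3 Zfp promoters of chromosome 3 (-0.39) and the 5 of chromosome 18 (-0.30).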
